A study of Mus musculus with 3 samples.

Results

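The genes of dentin and bone mineralization Dspp, Dmp1, Ibsp, Spp1, Phex, Alpl, Enpp1, Ank, Phospho1 and Smpd3 were followed by symbol in 3 libraries of proximal mouse incisor, and all 10 were found among the 19381 listed genes. The libraries came from the incisor mesenchyme of Gli1-CreER;Arid1afl/fl;Arid1bfl/fl mice (DKO), in which tamoxifen activates Cre recombinase in Gli1-expressing cells and so removes floxed parts of Arid1a and Arid1b, genes for DNA-binding subunits of the BAF chromatin remodeling complex. Mice were 1 month old, each received 1.5 mg of tamoxifen for every 10 g of body weight, and tissue was taken 4 days later. Recombination occurs in cells that express Gli1 when tamoxifen acts and is inherited by their progeny, so cells outside this lineage keep both genes. The 3 libraries form a single group, and the labels do not say that they came from separate animals, so the spread between them may be technical.

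Mineral forms in dentin and bone when phosphate and calcium are deposited on a collagen scaffold. The SIBLING proteins (small integrin-binding ligand, N-linked glycoproteins) are acidic, phosphorylated matrix proteins that bind calcium and mineral and steer its growth. Inorganic pyrophosphate blocks crystal growth, and its balance with phosphate is set by enzymes and transporters of the cell surface, while membrane-bound matrix vesicles provide an enclosed site for the first crystals. In the continuously growing incisor, odontoblasts arise from mesenchymal stem cells at the proximal end and begin to secrete dentin as they move away from it.

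Values are the deposited signal, a gene count scaled so that all libraries share the same upper quartile, given in normalized units in the order of replicates 1, 2 and 3. Total signal per library was 958773 to 986401, mitochondrial genes took 4.14% to 5.11% of it and a ribosomal RNA gene 4.66% to 7.27%, both highest in replicate 1. Replicate 1 also stood apart in 7 interferon-stimulated genes (Ifit1, Ifit3, Irf7, Isg15, Oasl2, Rsad2 and Usp18, named outside the rule), which summed to 964, 171 and 178. The floxed genes were read in every library, Arid1a at 129.8 to 135.9 and Arid1b at 50.5 to 50.8, values that include cells without recombination and exons outside the floxed parts and so do not check the deletion. The 10 mineralization genes together took 0.599%, 0.165% and 0.449% of the signal, and Dspp alone made up 84.0%, 67.6% and 80.4% of their sum. Leaving Dspp out, the other 9 summed to 947, 513 and 853, again lowest in replicate 2.

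The promoters of 5 of these genes are shown: Dmp1, Phex, Alpl and Enpp1 were lowest in replicate 2, whereas Spp1 was highest there. Those of Ibsp, Ank and Phospho1 are not shown, although Phospho1 was also lowest in replicate 2. Of the 10 genes, 8 had an entry in the RefSeq promoter table (GRCm38.p6, the assembly that mm10 names), while Dspp and Smpd3 had no entry in it. Each sequence is the 250 bases before the RefSeq transcription start nearest to the 5′ end of the deposited gene, 5′ to 3′ on the strand of the gene, in lower case. Capitals mark exact matches, on either strand, to ACCACA (the core bound by RUNX factors), TAATTG (a core bound by homeodomain factors such as MSX and DLX), TATAAA (the TATA box) and GGGCGG (the GC box bound by SP factors).
Dmp1, chr5:104202367-104202616, plus strand: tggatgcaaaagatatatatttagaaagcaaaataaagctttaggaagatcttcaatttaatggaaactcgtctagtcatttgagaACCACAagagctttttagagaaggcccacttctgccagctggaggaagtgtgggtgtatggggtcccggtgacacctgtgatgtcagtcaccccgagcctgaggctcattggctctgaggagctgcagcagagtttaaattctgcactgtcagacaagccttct
Spp1, chr5:104434861-104435110, plus strand: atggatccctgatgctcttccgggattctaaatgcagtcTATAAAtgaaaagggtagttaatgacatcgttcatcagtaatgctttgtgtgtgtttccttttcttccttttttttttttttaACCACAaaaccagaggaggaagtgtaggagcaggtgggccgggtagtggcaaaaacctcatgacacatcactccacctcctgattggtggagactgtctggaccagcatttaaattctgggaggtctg
Phex, chrX:157415287-157415536, minus strand: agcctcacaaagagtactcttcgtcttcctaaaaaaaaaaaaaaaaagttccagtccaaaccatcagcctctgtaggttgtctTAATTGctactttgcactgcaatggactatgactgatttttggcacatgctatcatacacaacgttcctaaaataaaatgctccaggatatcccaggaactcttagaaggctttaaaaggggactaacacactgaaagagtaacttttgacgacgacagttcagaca
Alpl, chr4:137796385-137796634, minus strand: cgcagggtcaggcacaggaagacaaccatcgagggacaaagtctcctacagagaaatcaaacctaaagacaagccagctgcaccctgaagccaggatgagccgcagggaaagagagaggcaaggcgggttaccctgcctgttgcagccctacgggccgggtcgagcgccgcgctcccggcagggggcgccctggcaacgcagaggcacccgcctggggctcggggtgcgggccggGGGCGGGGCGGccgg
Enpp1, chr10:24712160-24712409, minus strand: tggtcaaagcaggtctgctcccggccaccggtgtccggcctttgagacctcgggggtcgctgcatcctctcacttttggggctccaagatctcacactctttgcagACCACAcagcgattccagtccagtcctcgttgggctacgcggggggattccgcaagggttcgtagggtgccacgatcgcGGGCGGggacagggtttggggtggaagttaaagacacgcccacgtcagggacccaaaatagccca
Among 32851 promoters of the same length in the table, the RUNX core was held by 14.0%, the homeodomain core by 7.17%, the TATA box by 12.4% and the GC box by 32.7%. The RUNX core lay 164 bases before the start of Dmp1, 128 before that of Spp1 and 144 before that of Enpp1. The homeodomain core lay 167 bases before the start of Phex, and a TATA box match lay 211 before that of Spp1. Among the promoters not shown, Ibsp held a TATA box match 28 bases and a homeodomain core 198 bases before its start. Ank and Phospho1 held GC boxes. The GC box of Alpl occurred as a pair of overlapping matches, 15 and 10 bases before the start, and Enpp1 held a single GC box. GC content was 68.4% for Alpl and 61.2% for Enpp1, and lower for Dmp1 at 45.6%, Spp1 at 43.6% and Phex at 39.2%. These matches are letters only and no binding was measured.

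The SIBLING genes followed here lie in a stretch of 270 kb on mouse chromosome 5 (mm10), all on the plus strand. Mepe, a further SIBLING gene, was not found by symbol. From Dspp (104170712 to 104180127) the order runs through Dmp1 (104202613 to 104214102) and Ibsp (104299171 to 104311469) to Spp1 (104435118 to 104441050), with gaps of 22.5, 85.1 and 123.6 kb. Dspp, which encodes the precursor of dentin sialoprotein and dentin phosphoprotein, was at 4959, 1072 and 3489 (3174 ± 1963, SD, n = 3). Replicates 1 and 3 were high and replicate 2 low. It ranked number 7, 53 and 10 by signal among all listed genes. Per kilobase of exon it ranked number 21, 96 and 21 among the 18985 genes with an exon length. On both scales it stayed among the most abundant transcripts even in the low library.

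Dmp1, a regulator of mineral deposition that is strongest in osteocytes and also made by young odontoblasts, was at 8.36, 5.88 and 13.8 (9.34 ± 4.03). Only replicate 3 exceeded 10, and the gene fell short of the mean of 10 required for the counts over all genes. Ibsp, which encodes bone sialoprotein, a nucleator of mineral in bone and cementum, was at 15.6, 27.3 and 30.9 (24.6 ± 8.0). Its low library was replicate 1, with the other libraries close to each other. Spp1, which encodes osteopontin, an inhibitor of crystal growth also made by macrophages, was at 48.8, 87.5 and 59.7 (65.3 ± 20.0). It was highest in replicate 2, the library in which Dspp was lowest. The 4 SIBLING genes followed here thus took 4 different orders of the libraries. The distance between the patterns of Dspp and Spp1 (the root of the summed squared differences of their 3 log2 deviations) was 2.23, against 0.56 between Ibsp and Spp1.

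**Figure D1:**
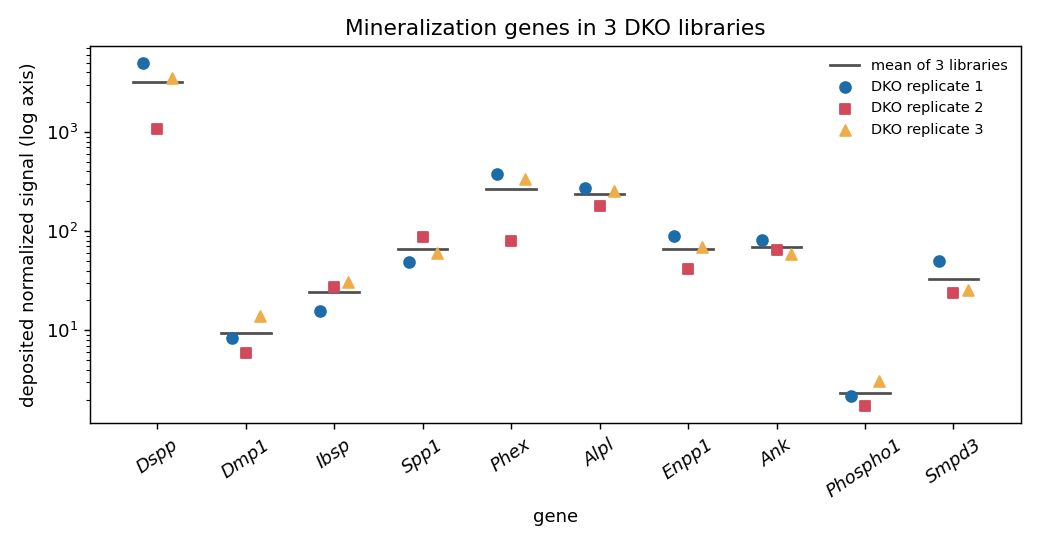
Deposited normalized signal (log axis) of the 10 genes in each DKO library, with points for the libraries and a horizontal line for the mean of 3. Dspp stands far above the rest, from 1072 to 4959, and Phospho1 lowest, from 1.73 to 3.06.

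The flanking genes of the cluster differed less between libraries than the SIBLING genes. Sparcl1, a relative of the matrix protein SPARC that lies 57.0 kb before Dspp, was at 118.5 ± 15.1 with an SD of log2 of 0.19, and Pkd2, which encodes the ion channel polycystin-2 and starts 18.4 kb after Spp1, was at 241.8 ± 14.9 with an SD of log2 of 0.09. The SIBLING genes had SDs of log2 of 1.16 for Dspp, 0.55 for Dmp1, 0.50 for Ibsp and 0.42 for Spp1.

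Phex (chromosome X, 157162075 to 157415312, minus strand) encodes a membrane peptidase of odontoblasts and osteocytes that cleaves acidic peptides of SIBLING proteins and whose loss causes hypophosphatemia. It was at 377, 79.7 and 339 (265 ± 162). Replicates 1 and 3 lay close together and replicate 2 stood apart below them, 4.49-fold lower than their mean. Its pattern was the nearest to that of Dspp among the 2105 genes with a mean of at least 100, at a distance of 0.30, although the genes lie on different chromosomes. Without replicate 2 the SD of log2 over the remaining libraries was 0.11 for Phex and 0.36 for Dspp, against 1.24 and 1.16 with all 3. Replicate 2 was the extreme library of both genes, so its omission was bound to lower these SDs.

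Alpl (chromosome 4, 137741733 to 137796384, minus strand) encodes tissue-nonspecific alkaline phosphatase, which hydrolyses pyrophosphate and releases phosphate. It was at 275, 181 and 253 (236 ± 49.2). Replicate 2 was again the low library, by a smaller margin than for Dspp and Phex, 1.46-fold below the mean of the others. Enpp1 (chromosome 10, 24637914 to 24712159, minus strand), which makes pyrophosphate from extracellular ATP, was at 88.3, 41.3 and 68.5 (66.0 ± 23.6). It had the same order of libraries as Alpl, with replicate 1 highest, although both genes act on pyrophosphate in opposite directions. Ank (chromosome 15, 27466677 to 27594909, plus strand), a membrane protein that moves pyrophosphate or its precursor ATP out of the cell, was at 81.9, 64.5 and 58.7 (68.4 ± 12.1). It was the only one of the 10 lowest in replicate 3, and its coefficient of variation, 17.7%, was the smallest of them.

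Smpd3 (chromosome 8, 106252548 to 106337988, minus strand) encodes neutral sphingomyelinase 2, an enzyme needed for mineralization of the skeleton and dentin. It was at 49.9, 23.9 and 25.7 (33.2 ± 14.5). Replicate 1 was high and the others were close to each other, whereas in Dspp and Phex, which shared its order of libraries, replicate 3 lay nearer to replicate 1. Phospho1 (chromosome 11, 95824499 to 95832140, plus strand) encodes the phosphatase that frees phosphate from phosphocholine inside matrix vesicles. It was at 2.17, 1.73 and 3.06 (2.32 ± 0.679), the lowest level of the 10. If the smallest listed value stands for 1 read, these are about 74, 63 and 131 reads, with counting errors of 11.6%, 12.6% and 8.72%. Phospho1 lies within the span of Zfp652 on the same strand, a gene at 163 to 169, and overlaps Abi3 on the other strand, at 2.36 to 5.80, so reads could be shared and its value is uncertain. Zfp652 and Abi3 are named outside the rule, for this overlap. Ank and Smpd3 overlap genes on the other strand too, and the strand setting of the counting is not known.

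Compared per kilobase of exon, which is the scale for comparing genes with each other, the order of levels was Dspp, Alpl, Phex, Spp1, Ank, Ibsp, Enpp1, Smpd3, Dmp1 and Phospho1. Dspp was at 716 ± 443 per kilobase and Alpl, the next, at 58.6 ± 12.2, and their ranges did not overlap. Phex (42.2 ± 25.7) overlapped Alpl, although it lay below it in 3 of 3 libraries. Spp1 (39.7 ± 12.1) was below Phex in 2 of 3 libraries and overlapped it. Ank (18.9 ± 3.34) did not overlap Spp1 above it or Ibsp (11.9 ± 3.87) below it. Enpp1 (6.44 ± 2.30) overlapped both Ibsp and Smpd3 (6.34 ± 2.78), with the order of Enpp1 and Smpd3 holding in 1 of 3 libraries. Dmp1 (3.38 ± 1.46) overlapped Smpd3 and stood clear of Phospho1 (1.14 ± 0.335). Exon length is the union over all annotated transcripts, so a gene with long rare exons is placed too low.

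**Figure D2:**
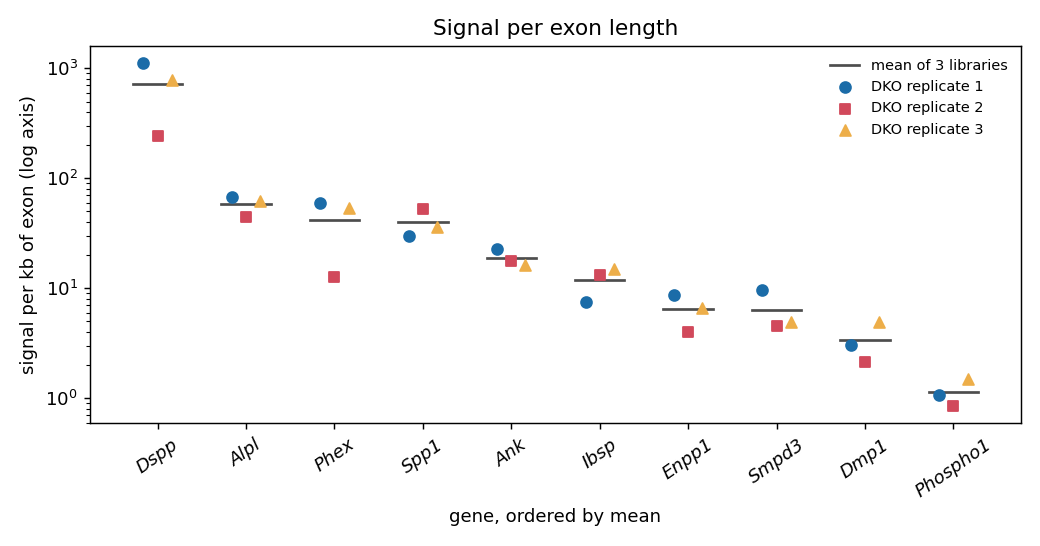
Signal per kilobase of exon (log axis) of the 10 genes, ordered by mean, with points for the 3 DKO libraries and lines for their means. Dspp, at 242 to 1119, lies apart from Alpl at 44.8 to 68.1, and neighbours from Ibsp to Dmp1 overlap.

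Within libraries, linked genes kept fixed orders per exon length. Alpl exceeded Enpp1 by 7.91-, 11.1- and 9.40-fold per kilobase, a log2 difference of 3.21 ± 0.24 (SD, n = 3), and this ratio was largest in replicate 2 even though both genes were lowest there. Alpl exceeded Ank by a log2 difference of 1.61 ± 0.31, and Enpp1 lay below Ank by a difference of -1.61 ± 0.46. The enzyme that removes pyrophosphate was therefore at a higher transcript level per length than either of the genes that supply it, in 3 of 3 libraries. In the vesicle pair, Phospho1 differed from Smpd3 by -1.94 ± 0.65 and Alpl exceeded Phospho1 by 5.16 ± 0.25. Among the SIBLING genes, Spp1 exceeded Ibsp by 1.71 ± 0.40 and Dspp exceeded Dmp1 by 7.39 ± 0.90. Dspp was 370-, 113.7- and 158-fold above Dmp1 per kilobase. Each of the 7 differences had the same sign in 3 of 3 libraries, and an exact permutation of signs (two-sided) gave p = 0.25 for each, before and after Benjamini-Hochberg adjustment over the 7, the smallest value that 3 libraries allow. The Enpp1 and Ank order rests on exon length: undivided, the log2 difference was -0.10, with Enpp1 above Ank in replicate 1 (88.3 against 81.9) and replicate 3 (68.5 against 58.7) and below it in replicate 2 (41.3 against 64.5).

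The genes differed in how far and in which library they departed from their means. Of the 10, 8 had a mean of at least 10, a level reached by 53.6% of all listed genes, and Dmp1 and Phospho1 did not. Of these 8, 5 (Dspp, Phex, Smpd3, Enpp1 and Ibsp) had an SD of log2 above 0.5, against 1.89% of all genes with such a mean. The median SD of log2 was 0.53 over the 8 and 0.10 over the 10388 genes. Ibsp lay just above the threshold at 0.502 and Spp1 below it at 0.42. Without replicate 2 the count was 2, Ibsp and Smpd3, against 2.49% of all genes. Without replicate 1 it was 3 against 1.08%, and with a pseudocount of 10 it was 2 against 1.11%. The coefficients of variation of the 8 genes were 17.7% to 61.8%.

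**Figure D3:**
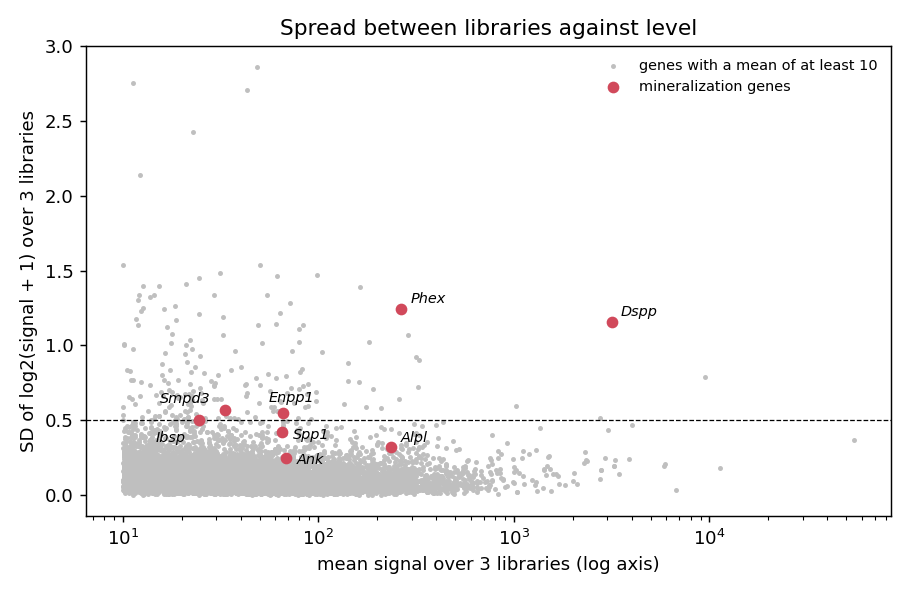
SD of log2(signal + 1) over the 3 DKO libraries against mean signal (log axis) for 10388 genes in grey, with the 8 mineralization genes that had a mean of at least 10 in red and the threshold of 0.5 dashed. Phex at 1.24 and Dspp at 1.16 lie above nearly all genes of like level, and Ank at 0.24 lies nearest to the bulk.

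Replicate 2 was the lowest library for 5 of the 8 genes (Dspp, Phex, Alpl, Enpp1 and Smpd3), against 27.8% of all genes with a mean of at least 10. With Dmp1 and Phospho1 included it was 7 of 10, against 29.4% of genes of any level. Replicate 1 was lowest for Ibsp and Spp1, 2 of the 8 against 38.1% of all genes, and it was highest for 6 of the 8 against 31.2%. Replicate 3 was lowest for Ank alone, 1 of the 8 against 34.2%, and highest for Ibsp alone, against 34.6%, while replicate 2 was highest for Spp1 alone, against 34.2%. A value at least 2-fold lower in replicate 2 than in both other libraries was found for Dspp and Phex, 2 of the 8, against 0.221% of all genes, or 23 genes. Rescaling to equal totals, with or without mitochondrial and ribosomal RNA genes, left the lowest and highest counts among the 8 genes as they were.

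**Figure D4:**
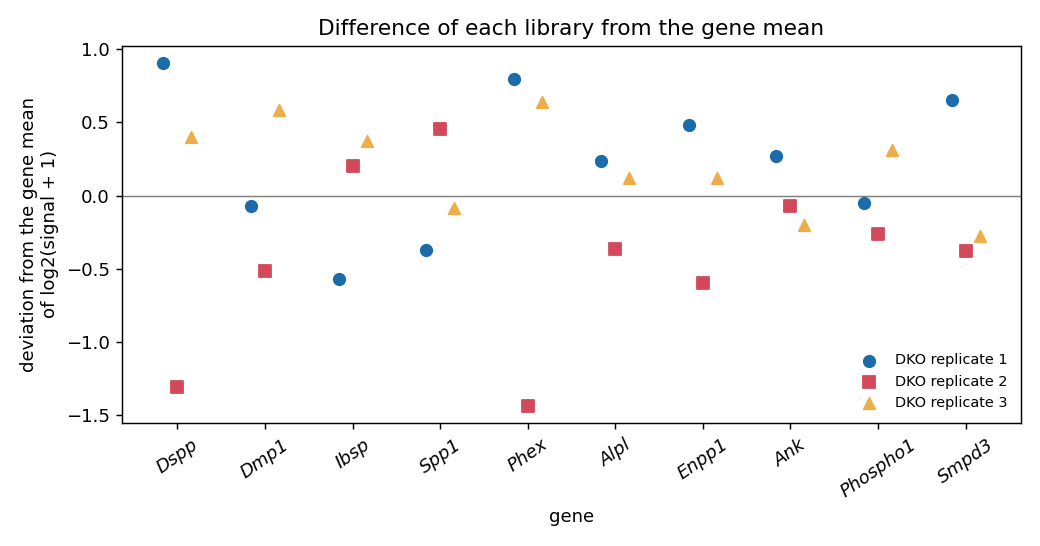
Deviation of each DKO library from the gene mean of log2(signal + 1), with 1 point per library and gene. Replicate 2 lies lowest for Dspp at -1.30 and Phex at -1.43 and highest for Spp1 at 0.46.

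Genes with patterns like these were sought among the 2105 genes with a mean of at least 100, as a description over 3 libraries. Nearest to Dspp after Phex were Bglap and Bglap2, which encode osteocalcin and may share reads as close copies, at distances of 0.45 and 0.68, Col11a2, a chain of fibrillar collagen XI, at 0.47, and Lox, which encodes the collagen cross-linking enzyme lysyl oxidase, at 0.81. All of them were lowest in replicate 2, Lox at 215, 101 and 256. Nearest to Alpl were Enpp2, which encodes the lysophospholipase autotaxin, at 0.06, then Tbc1d4, H2-D1, Scara3 and Nes, with Nes at 166, 113 and 169. Nearest to Spp1 were Dio2, Krt14, Hspa5, Ambn and Hsp90b1, at distances of 0.17 to 0.20. Krt14 is a keratin of epithelium, Ambn encodes the enamel matrix protein ameloblastin, and Hspa5 and Hsp90b1 encode chaperones of the endoplasmic reticulum. Krt14 was at 123, 191 and 154 and Hspa5 at 679, 1017 and 787, both highest in replicate 2.

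Of 11 genes listed for the processing and phosphorylation of SIBLING proteins, 9 had a mean of at least 10. Not all of the 11 encode enzymes that act on these proteins. Of the 9, 6 were lowest in replicate 2, against 27.8% of all genes with such a mean. The median SD of log2 of the 9 was 0.21, above the 0.10 of all genes with such a mean. Furin, a proprotein convertase, was at 245.2 ± 17.2, Pcsk5 of the same family at 213 ± 26.8 and Mmp2, a gelatinase, at 292 ± 64.3. Mmp20, a protease of enamel matrix and of odontoblasts that cleaves dentin sialophosphoprotein, was at 79.6, 19.1 and 91.4, with the largest SD of log2 of the list at 1.22. Fam20c, the kinase that phosphorylates SIBLING proteins, was at 26.7, 15.1 and 21.6, and its relative Fam20a, a pseudokinase that supports it, at 46.7, 26.1 and 48.4, with SDs of log2 of 0.39 and 0.49. Mmp20, Fam20c and Fam20a thus had their minimum in replicate 2, like Dspp and Phex. Fam20c and Fam20a are named outside the rule, after their values were examined.

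Of the 8 phosphate transport and FGF23 axis genes other than Phex, 5 had a mean of at least 10, with a median SD of log2 of 0.20. Replicate 2 was lowest for 3 of these 5, against 27.8% of all genes with such a mean. Fgfr1, a receptor for FGF ligands, was at 1129 ± 57.6, the sodium-phosphate cotransporter gene Slc20a2 at 473 ± 49.5 and the phosphate exporter gene Xpr1 at 286 ± 59.7. In the pyrophosphate and adenosine list without Alpl, Enpp1 and Ank, 5 of 8 genes had a mean of at least 10. Of the 5, 3 were lowest in replicate 2, against the same 27.8%, and the median SD of log2 was 0.12. Enpp6, a choline phosphodiesterase, was at 175.2 ± 13.3 and Entpd1, an enzyme that hydrolyses extracellular ATP, at 80.5 ± 6.75.

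The 11 other matrix vesicle and phospholipid genes all had a mean of at least 10, and their median SD of log2 was 0.11. The calcium-binding annexins Anxa5 and Anxa2 were at 559 ± 39.7 and 403 ± 33.0, and Chka, a choline kinase, at 198.1 ± 14.7. Of these 11 genes, 6 were lowest in replicate 2, against 27.8% of all genes with such a mean. Highest in replicate 1 were 6, against 31.2%. None of the 11 had an SD of log2 above 0.5, against 1.89% of all genes with such a mean. The receptor genes for SIBLING proteins were lowest in replicate 1 in 3 of 4 cases, against 38.1% of all genes with such a mean. Among the receptors, Itgb1 was at 1007 ± 104.3, Itgav at 245 ± 13.7 and Cd44 at 193 ± 23.6. Transcription factors of mineralizing cells had a median SD of log2 of 0.09 over all 10, with Dlx3 at 349 ± 30.7 and Msx1 at 240.1 ± 29.2. Sp7, the osteoblast and odontoblast factor osterix, was at 187, 182 and 176 and did not have the low replicate 2 of Dspp.

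Markers of the cells that could hold these transcripts also differed between libraries. In bulk tissue, fewer cells of a type and less RNA per cell cannot be told apart. Among odontoblast markers other than the members, 8 of 10 had a mean of at least 10. Of the 8, 5 were lowest in replicate 2, against 27.8% of all genes with such a mean. None was highest there, against 34.2%. The summed signal of the 10 was 14662, 9837 and 20890. Col1a1, the main collagen chain of dentin and bone, dominated this sum at 9950, 4719 and 13715, while Col1a2, its partner chain, was at 2809, 3890 and 5371 and not lowest in replicate 2. Several of these markers are also made by osteoblasts. Osteoblast and osteocyte markers other than the members summed to 752, 408 and 801. Most of the difference between these sums lay in Bglap, at 363, 104 and 394, and Bglap2, at 118, 43.1 and 153. Sp7, the next highest of the list, was at 187, 182 and 176. The median deviation of the list in replicate 2 was only -0.08. Lowest in replicate 2 were 3 of 6 with a mean of at least 10, against 27.8% of all such genes. Both osteocalcin genes were among the 3, and Bglap is in both lists. Sost, which encodes the osteocyte product sclerostin, was at 0.233, 0.165 and 0.0466, and Ifitm5, an osteoblast membrane protein gene, at 0.294, 0.165 and 0.163, all near the smallest values listed.

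**Figure D5:**
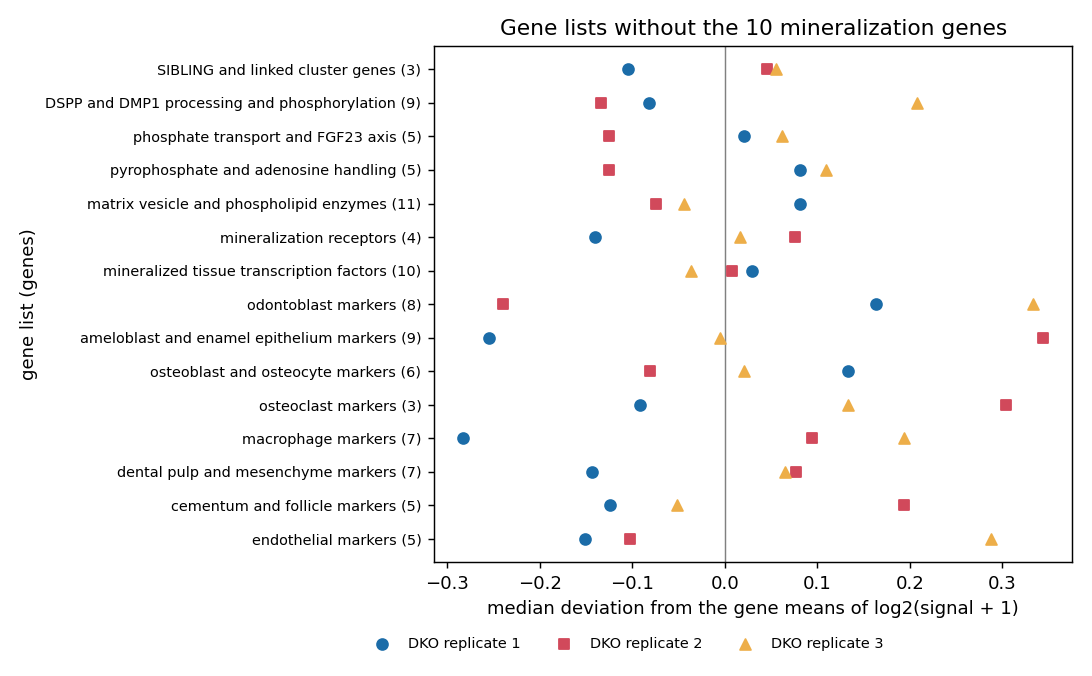
Median deviation of each DKO library from the gene means of log2(signal + 1) over the genes of each list with a mean of at least 10, without the 10 mineralization genes (number of genes in brackets). Replicate 2 was lowest for odontoblast markers at -0.24 and highest for ameloblast and enamel epithelium markers at 0.34.

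Ameloblast and enamel epithelium markers went the other way, with a summed signal of 890, 1295 and 1047. Highest in replicate 2 were 6 of 9 with a mean of at least 10, against 34.2% of all such genes. Amelx, which encodes amelogenin, was at 54.6, 145 and 66.0, Enam, which encodes enamelin, at 140, 241 and 246, and Krt5, a basal keratin, at 180, 253 and 162. Shh, the hedgehog ligand, was at 34.3, 33.1 and 0.885. Epithelial transcripts were thus present in all 3 libraries of this tissue, labelled mesenchyme. Mmp20, also in this list, was lowest in replicate 2. Spp1 had its maximum in the same library as the sum of the list, and the part of epithelium in its value was not tested.

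Macrophage markers, which could also carry Spp1, summed to 843, 1134 and 1185. Lowest in replicate 1, like Spp1 and Ibsp, were 7 of 7 with a mean of at least 10, against 38.1% of all such genes. Mrc1 was at 217, 297 and 287, Lyz2 at 204, 285 and 308 and Csf1r at 173, 228 and 246. Osteoclast markers were low, with a sum of 75.6, 96.8 and 93.5, Ctsk at 41.4 ± 3.49, Acp5 at 28.9 ± 5.81 and Mmp9 at 8.16, 20.5 and 22.5. Calcr, the calcitonin receptor gene of mature osteoclasts, was at 0.0874, 0.467 and 0.233. Pulp and mesenchyme markers were lowest in replicate 1 in 7 of 7 cases, against the same 38.1%. Their list summed to 6667, 9215 and 9434, with Igfbp5 at 1756, 3242 and 3248 and Postn at 610, 1139 and 1337. Tnc and Vcan, matrix genes of the pulp, were at 1700 ± 83.1 and 1674 ± 140.1. Cementum and follicle markers summed to 432, 547 and 493, led by Wif1 at 333 ± 47.9, Spon1 at 57.6 ± 6.07 and Acta2 at 45.4 ± 10.8. Endothelial markers summed to 294, 312 and 418, and 5 of 5 were highest in replicate 3, against 34.6% of all genes with a mean of at least 10. Cdh5 was at 88.2 ± 16.9, Vwf at 78.3 ± 24.7 and Kdr at 74.2 ± 10.6. Chondrocyte markers summed to 250.7, 190.4 and 189, nearly all of it Sox9 at 187.4 ± 32.0, with Acan at 14.5 ± 5.76 and Col2a1 at 4.43 ± 1.04. The part of these cell types in the values of the mineralization genes was not tested.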

How the data were processed

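Bulk RNA-seq values of 3 DKO libraries were used. Reads were aligned with TopHat2 2.0.8 to mm10, per the submitters' processing notes. The authors deposited a normalized gene-level signal, 1 column per library, not divided by gene length. Its 75th percentile over all listed genes was 44.7 in each library. For the read counter, annotation and strand setting, none is given in the sources used here. Each column carries the number found in the name of its library, and 0 value columns were left unmatched.

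Levels are given as mean ± SD. Logarithms are log2(signal + 1). Exon length was the union of GENCODE vM21 exons, the annotation of the same genome build, matched by symbol for 18985 of 19381 genes. Differences between linked members were taken within libraries, and their signs were permuted exactly (two-sided). Spread, lowest and highest library were counted where the mean was 10 or more. The calculations used Python 3.11.15, numpy 2.4.6 and pandas 2.3.3. Of them, only the SD threshold and the pattern distances were tested on simulated data, with a planted pattern well above the threshold. Genes near the threshold were not covered by this.

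Whole reads were not recovered: 82.4% to 82.6% of values up to 20 times the smallest were whole multiples of it to within 0.1, so no count test was run. Gene ends in the deposited table lie 1 base past those of GENCODE vM21 and are given here as the last base of the gene.

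Named genes were the 10 members, both floxed genes, from each list its 3 highest genes and those whose log2 SD exceeded 0.5 (mean 10 or more), the 5 genes nearest in pattern to Dspp, Alpl and Spp1, and defining markers near the smallest value. Genes that overlap a member are named outside this rule. Not every gene that this rule takes is reported by name. The members and the 16 lists, with 134 genes of which 128 were found by symbol, were chosen with earlier results of these data known. Other scalings, pseudocounts and filters and the omission of each library were tried. Cell types could not be separated in this bulk material, and control mice were not analysed here.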

Additional observations from a re-analysis of the deposited data

How the results depend on the processing

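No paired analysis was possible because the labels give a single group. In all 6 alternatives run for each of the 7 within-library differences (pseudocounts of 0.1 and 10, no division by exon length, and each library left out), the mean kept its direction, but sizes moved. With a pseudocount of 10, Phospho1 minus Smpd3 went from -1.94 to -0.39 and Alpl minus Phospho1 from 5.16 to 3.31, and without division by exon length Alpl minus Enpp1 went from 3.21 to 1.87. Without division by exon length, Enpp1 minus Ank was -0.10 and Enpp1 was the higher gene in 2 of 3 libraries. The mean of each of the 10 genes moved by less than 1 SD under both rescalings to equal totals. Totals were 958773 to 986401, so these rescalings could move the means only a little against such SDs. Leaving out single libraries gave means of 2281 to 4224 for Dspp and 209 to 358 for Phex. The 8 genes over the minimum mean of 10, which 53.6% of all listed genes reached, became 3 with a minimum of 100. That minimum was reached by 2105 of the 19381 listed genes. The count of 5 for a log2 SD over 0.5 (1.89% of all genes) became 2 with a pseudocount of 10 (1.11%). It was also 2 with a minimum mean of 100 (0.950%) and 2 with an SD threshold of 1 (0.472%). Without replicate 1 the count was 3 (1.08%), without replicate 2 it was 2 (2.49%) and without replicate 3 it was 6 (2.43%). The single gene highest in replicate 3 became 3 with no filter on low values, which admits Dmp1 and Phospho1. Of the 5 genes nearest in pattern, the wider pool of genes with a mean of at least 10 kept 1 for Dspp, 0 for Alpl and 0 for Spp1, where more genes compete for the same places. Depth limits what can be said of Phospho1, whose value in replicate 2 has a counting error of 12.6% if the smallest value is 1 read.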
